A study of Mus musculus with 15 samples.

Results

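The genes described here are 47 type I interferon-stimulated genes, chosen by name as genes that interferon alpha and beta are known to induce. All 47 were found among the 55416 genes counted in whole blood RNA of 15 mice, and 46 passed the filter on low counts. Ifi44 did not pass, with 2 to 30 counts per library, and was left out of every test. Type I interferons signal through the receptor of Ifnar1 and Ifnar2 and the kinases Jak1 and Tyk2. The kinases activate a complex that contains Stat2 and Irf9 and binds the interferon-stimulated response element in the promoters of its targets. The products of these genes block viral RNA and protein synthesis, sense nucleic acids or feed back on the pathway, and in blood most leukocytes can express them.

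The mice were wild-type C57BL/6, which the study's methods describe as young females, with 4MOSC1 cells, a mouse oral squamous cell carcinoma line, transplanted into the tongue. The labels give 10 days of growth for all 15 mice, the untreated ones included. In 2 groups of 5 the mice received 2 doses of αCTLA-4, an antibody against the T cell checkpoint receptor CTLA-4, with early or late neck dissection (ND), the surgical removal of the draining lymph nodes of the neck. The other 5 mice were untreated and had no surgery. No group received αCTLA-4 without ND or ND without αCTLA-4, so antibody and surgery cannot be told apart in a comparison with untreated mice. The study's text places blood sampling after late ND and its figure legend before it, so "after late ND" below names the label of the group. One library was made from the blood of each mouse, drawn from the cheek and freed of clots, and p-values measure the spread between these mice.

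Gene counts per library ranged from 5527108 to 13924361. Levels are given as CPM, the counts of a gene scaled to a common library size, after TMM scaling, in which a factor per library (0.425 to 1.92) sets the bulk of genes equal between libraries, so that CPM values do not sum to the same total in each library. The hemoglobin genes took 14.9% to 29.3% of gene counts after late ND, 38.3% to 64.1% after early ND and 31.6% to 61.7% in untreated mice. The summed CPM of 4 other erythroid genes (Alas2, Slc4a1, Epb42 and Slc25a37) ranged from 2279 to 5019 after late ND, 6962 to 32249 after early ND and 6784 to 37063 in untreated mice. In whole blood, fewer cells of a type and less RNA per cell cannot be told apart. The libraries untreated 2, late 2 and late 3 held little 18S ribosomal RNA (164 to 575 CPM of Rn18s-rs5, against at least 9547 in the other 12), and the counts of calls below were repeated without them.

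The promoters of the 4 genes called below, and that of Ifit1 for comparison, a gene that was not called and holds the core at 2 places, are shown first, since the response element is the feature these genes are known to share. RefSeq windows from 250 bases before to 50 bases after a start (build GRCm38.p6) were found for 36 of the 47 genes, with 43 starts. No window was matched for Usp18, Oas2, Mx1, Ifi27l2a, Zbp1, Dhx58, Rtp4, Parp9, Parp14, Ifi204 and Tor3a. The core of the element was searched as GAAANNGAAA on both strands, where N is any base and matches may overlap. It lay in at least 1 window of 17 of the 36 genes (47.2%), against 3.99% of all 27025 genes with a window (1079 genes). The windows of Rsad2 (chr12:26456403-26456702, minus strand), Isg15 (chr4:156200769-156201068, minus strand), Isg20 (chr7:78913174-78913473, plus strand, the first of 3 starts), Ifit2 (chr19:34550444-34550743, plus strand, the first of 2 starts) and Ifit1 (chr19:34640639-34640938, plus strand) are printed in the direction of transcription, with each match to the core, or to its reverse complement, in capitals.
Rsad2: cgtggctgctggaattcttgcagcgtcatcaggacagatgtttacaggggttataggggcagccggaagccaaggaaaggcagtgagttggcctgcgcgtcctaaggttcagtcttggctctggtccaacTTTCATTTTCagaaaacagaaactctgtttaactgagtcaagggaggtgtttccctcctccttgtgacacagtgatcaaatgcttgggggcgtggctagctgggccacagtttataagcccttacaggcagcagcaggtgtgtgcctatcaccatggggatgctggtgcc
Isg15: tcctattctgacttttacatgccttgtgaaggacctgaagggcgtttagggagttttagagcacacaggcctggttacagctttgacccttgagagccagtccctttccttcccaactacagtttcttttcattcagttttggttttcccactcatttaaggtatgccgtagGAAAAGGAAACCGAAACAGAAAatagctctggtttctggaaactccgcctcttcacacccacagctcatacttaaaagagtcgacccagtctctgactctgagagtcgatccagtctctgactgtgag
Isg20: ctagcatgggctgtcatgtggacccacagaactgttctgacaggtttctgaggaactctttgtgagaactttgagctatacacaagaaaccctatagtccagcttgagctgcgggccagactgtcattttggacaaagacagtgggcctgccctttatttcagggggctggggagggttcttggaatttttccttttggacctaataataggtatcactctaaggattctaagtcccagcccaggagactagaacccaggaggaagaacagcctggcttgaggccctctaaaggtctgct
Ifit2: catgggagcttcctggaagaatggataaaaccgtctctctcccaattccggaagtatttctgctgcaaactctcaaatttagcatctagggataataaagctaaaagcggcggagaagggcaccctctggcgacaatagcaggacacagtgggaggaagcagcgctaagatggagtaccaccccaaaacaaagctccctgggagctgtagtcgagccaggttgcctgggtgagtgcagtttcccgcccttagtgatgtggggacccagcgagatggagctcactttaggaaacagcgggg
Ifit1: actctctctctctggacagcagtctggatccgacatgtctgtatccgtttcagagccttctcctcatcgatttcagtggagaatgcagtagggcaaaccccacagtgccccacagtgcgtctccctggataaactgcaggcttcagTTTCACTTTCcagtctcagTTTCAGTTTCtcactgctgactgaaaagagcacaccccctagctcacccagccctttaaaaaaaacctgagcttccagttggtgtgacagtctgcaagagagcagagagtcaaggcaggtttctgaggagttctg
The 3 matches of Isg15 overlap and begin at positions -78, -72 and -66 relative to the start, that of Rsad2 begins at -120 and those of Ifit1 at -104 and -85. None of the 3 windows of Isg20 and neither window of Ifit2 held the core. The matches are letters in a window and do not show that a factor was bound.

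Of the 46 genes tested, 4 fell and 0 rose after late ND compared with early ND (edgeR, adjusted p under 0.05), while 2.48% of all 13315 genes were lower and 2.5% higher. The 4 were Rsad2, Isg20, Isg15 and Ifit2. Of the 46 log2 fold changes 35 were negative with a median of -0.17, against a median of 0.014 over all genes. Compared with untreated mice 3 genes fell after late ND, Isg20, Rsad2 and Isg15, and 0 rose (all genes: 2.01% lower, 0.989% higher), 28 of the 46 log2 fold changes were negative and their median was -0.04 against 0.0023 over all genes. Between early ND and untreated mice edgeR called 0 of the 46 genes and 0 of all 12151 (0%), and DESeq2 also called 0. By edgeR 0 of the 46 had an unadjusted p under 0.05, against 256 higher and 283 lower of all 12151 genes. Both late ND comparisons use the same 5 late ND mice. The plot of fold changes gives all 46 genes in the 3 comparisons.

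**Figure D1:**
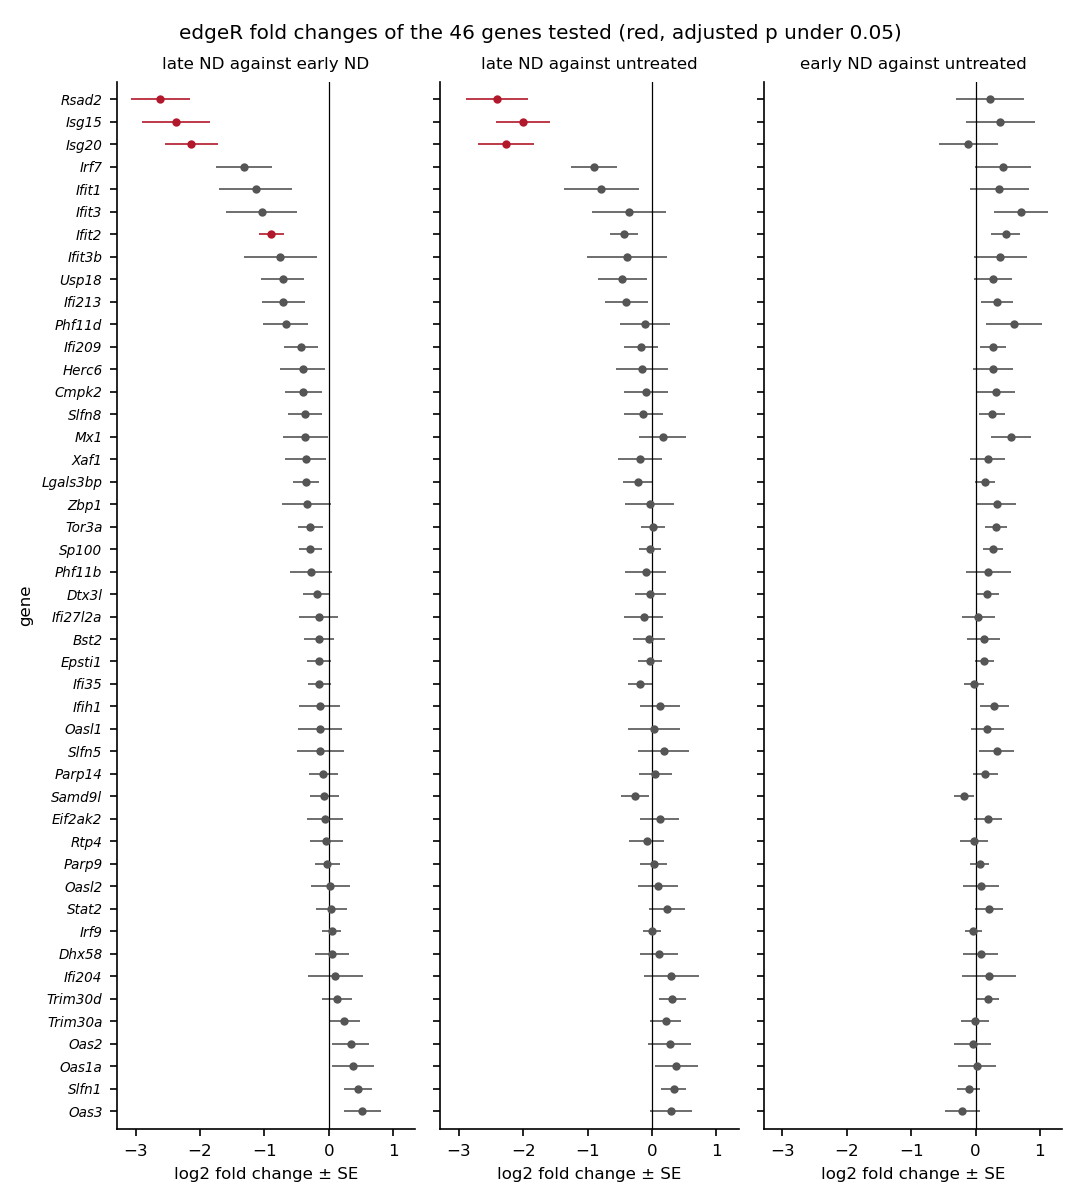
log2 fold change with its standard error (edgeR, x axis) of the 46 tested interferon-stimulated genes (y axis, ordered by the first panel) for late ND against early ND, late ND against untreated and early ND against untreated mice, with red for adjusted p under 0.05. Rsad2, Isg15 and Isg20 lie near -2 or below in both late ND panels, Ifit2 is red at -0.89 in the first, and no gene is red in the third. When library totals replace TMM, Ifit2 is at 0.01 and the median of all genes at 0.86.

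Rsad2 (ENSMUSG00000020641) encodes viperin, a radical SAM enzyme that makes a chain-terminating nucleotide against viral RNA polymerases, and lies on chromosome 12 at 26492745 to 26506451, minus strand (GRCm39). Its CPM in mice 1 to 5 was 1334, 312, 903, 1018 and 225 in the untreated group. After early ND it was 223, 930, 613, 1635 and 1030, and after late ND 239, 142, 112, 150 and 66.1. All late ND mice but mouse 1 lay below every other mouse, and late 1 exceeded only early 1 and untreated 5. The log2 fold change was -2.61 ± 0.46 (SE, edgeR adjusted p = 0.0130) against early ND and -2.42 ± 0.48 (SE, adjusted p = 0.0250) against untreated mice, a level 0.163 and 0.187 times as high.

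Isg20 (ENSMUSG00000039236), an exonuclease that degrades single-stranded RNA, lies on chromosome 7 at 78562598 to 78570153, plus strand. Untreated mice 1 to 5 had 3062, 1009, 2224, 1229 and 597 CPM. The values were 665, 1183, 908, 2657 and 2111 after early ND and 477, 343, 274, 442 and 144 after late ND. Isg20 was the 1 gene of the 46 whose late ND values all lay below those of early ND, and likewise below those of untreated mice (all genes: 2.93% and 2.98%). It fell by 2.14 ± 0.41 on the log2 scale (SE, edgeR adjusted p = 0.0184) against early ND and by 2.27 ± 0.44 (SE, adjusted p = 0.0242) against untreated mice.

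Isg15 (ENSMUSG00000035692) encodes a ubiquitin-like protein that is attached to other proteins after interferon exposure, and lies on chromosome 4 at 156283883 to 156285303, minus strand. Its CPM was 330, 124, 353, 267 and 83.4 in untreated mice 1 to 5. It was 75.5, 194, 150, 655 and 444 after early ND, and 107, 48.0, 41.7, 57.1 and 32 after late ND. The late ND mice other than mouse 1 were again below every other mouse. The log2 fold change was -2.38 ± 0.53 (SE, edgeR adjusted p = 0.0285) against early ND and -2.01 ± 0.42 (SE, adjusted p = 0.0271) against untreated mice. Isg15 was not called against early ND with the replicate number as a block (-2.18 ± 0.59, SE), nor against untreated mice with all 15 libraries in 1 fit (-2.02 ± 0.54, SE). A gene on the opposite strand overlaps 31.1% of the exon length of Isg15, and the strand setting of the counting is not given in the sources used here.

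Ifit2 (ENSMUSG00000045932), which binds RNA and restrains translation, lies on chromosome 19 at 34527932 to 34554524, plus strand. It had 44.6, 51.8, 71.6, 68.4 and 33.1 CPM in untreated mice 1 to 5, then 68.7, 68.6, 50.2, 86.2 and 102 after early ND and 56.0, 37.3, 38.8, 31.8 and 34.7 after late ND. The 2 ND groups overlapped at late 1 and early 3. Ifit2 fell by 0.89 ± 0.20 on the log2 scale (SE, edgeR adjusted p = 0.0292) against early ND. With library totals this difference was 0.01, where the median of all genes was 0.86. From untreated mice Ifit2 differed by -0.44 ± 0.21 (SE, edgeR adjusted p = 0.326).

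The number of genes called lower after late ND against early ND was 0 without the 3 libraries poor in 18S RNA, where the log2 fold changes of Rsad2, Isg20, Isg15 and Ifit2 were -2.55, -2.09, -2.21 and -0.88 and 0 of all 13440 genes were called lower and 4 higher. It was 1 (Rsad2) without early 4 or without late 3, 2 (Rsad2 and Isg20) without late 4 or without late 5, and 6 without late 1. In these fits, in the same order, 113 of 13800, 106 of 13323, 162 of 13446, 180 of 13278 and 214 of 13403 genes were lower. With all mice 330 of 13315 genes were. Against untreated mice the count was 0 without the 3 libraries, without untreated 3 or without any 1 late ND mouse, and 1 (Isg20) without untreated 1 or without untreated 4. In these fits with a count of 0 none of all genes tested was lower either, and 0 to 9 were higher. Without untreated 1 and without untreated 4, 110 of 14150 and 120 of 14090 genes were lower, against 272 of 13547 with all mice. Without the 3 libraries the log2 fold changes of Isg20, Rsad2 and Isg15 against untreated mice were -2.36, -2.54 and -2.01. When library totals replaced TMM the median of all genes moved to 0.86 against early ND and 0.91 against untreated mice. Then 24 of the 46 genes were called higher in each comparison, where 8923 of all 13315 and 7484 of all 13547 genes were higher. Rsad2, Isg20 and Isg15 were still called lower, as were 137 and 90 of all genes.

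**Figure D2:**
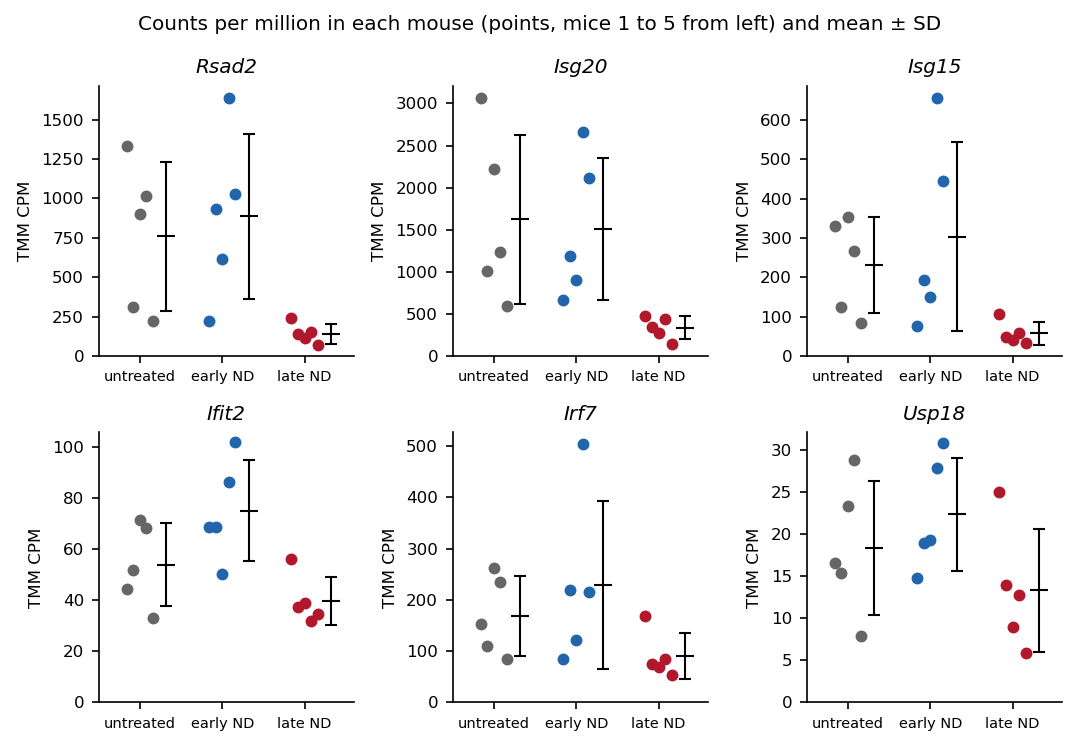
TMM-scaled CPM (y axis, linear from 0) of Rsad2, Isg20, Isg15, Ifit2, Irf7 and Usp18 in each untreated, early ND and late ND mouse (points) with the mean and SD of 5 mice beside them. Late ND values of Isg20 (144 to 477) lie below all others, and late 1 is the highest late ND mouse for all 6 genes.

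Rsad2, Isg20 and Isg15 were also 3 of the genes with the highest level per length in blood. Over the 15 mice Isg20 averaged 452 CPM per kilobase of exon, Isg15 252 and Rsad2 137. They were followed by Slfn1 at 99.3, Ifi27l2a at 70.2 and Irf7 at 43.0 CPM per kilobase, and the lowest were Phf11d at 0.688 and Ifi44 at 0.200. Together Rsad2, Isg20 and Isg15 made up 44.6% ± 15 (SD, n = 5) of the summed CPM of the 47 genes in untreated mice, against 42.9% ± 10.1 (SD, n = 5) in the early ND group but 15.7% ± 2.37 (SD, n = 5) in the late ND group. The other 44 genes summed to 2857 ± 757, 3171 ± 675 and 2835 ± 1115 CPM (SD, n = 5 each). These 3 genes were singled out after their values were seen, and the shares are given with no test.

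The 3 genes moved with the erythroid genes from mouse to mouse. Among the 10 early ND and untreated mice, where no gene was called between the groups, each gene was fitted with a slope on the log2 summed CPM of the 4 non-globin erythroid genes, with the group as a term. The slope was positive and passed for 4 of the 46 genes and negative for 0 (edgeR, adjusted p under 0.05), against 2.16% and 0.0494% of 12151 genes. Without untreated 2, the 1 of these mice poor in 18S RNA, the same 4 genes passed, against 1.94% of 12207 genes. Rsad2 had a slope of 1.14 ± 0.15 (SE, adjusted p = 0.000669), Isg15 of 1.12 ± 0.17 (SE, adjusted p = 0.00230) and Isg20 of 0.92 ± 0.11 (SE, adjusted p = 0.000365), where 1 means that the gene doubles when the erythroid genes double. Irf7 followed with 0.82 ± 0.17 (SE, adjusted p = 0.0225). The median slope was 0.21 over the 46 genes and -0.01 over all genes, and the slope of Slfn1 was -0.10 ± 0.11 (SE, adjusted p = 0.803).

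The late ND mice were not in that fit. In all 15 mice the counts of each of the 4 called genes were also divided by those of the 4 erythroid genes, which needs no scaling to other genes. The log2 ratio differed by -0.44 for Rsad2 (exact permutation test, p = 0.0635, adjusted p = 0.169), -0.04 for Isg20 (p = 0.841, adjusted p = 0.841, exact permutation test) and -0.08 for Isg15 (p = 0.841, adjusted p = 0.841, exact permutation test) between late and early ND. For Isg20 the ratio was -3.60 ± 0.27 (SD, n = 5) in late ND mice, -3.57 ± 0.35 (SD, n = 5) in early ND mice and -3.45 ± 0.17 (SD, n = 5) without treatment. For Ifit2 the ratio moved the other way and was 1.15 higher than in early ND mice (p = 0.0238 by exact permutation, 0.0952 once adjusted). It was 1.60 higher than in untreated mice, with every late ND mouse above every untreated mouse (p = 0.00794 by exact permutation, 0.0635 once adjusted). Neither passed over the 8 tests. With 5 mice per group 0.00794 is the lowest p that exact permutation can give. A lone comparison at that p cannot pass over 8 tests, so no conclusion is drawn from its adjusted p. With the hemoglobin share of each library as a covariate edgeR called 0 of the 46 genes in both late ND comparisons. It also called 0 of all 13315 and 0 of all 13547 genes. The median of the 46 log2 fold changes was 0.97 against early ND and 0.64 against untreated mice, where that of all genes was -0.03 in both. The log2 fold changes against early ND were -0.43 for Rsad2, -0.10 for Isg20, 0.23 for Isg15 and -0.35 for Ifit2. The hemoglobin share did not overlap between late ND and the other mice, and whether the fall of the 3 genes is a fall in erythroid RNA was not tested beyond these values.

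**Figure D3:**
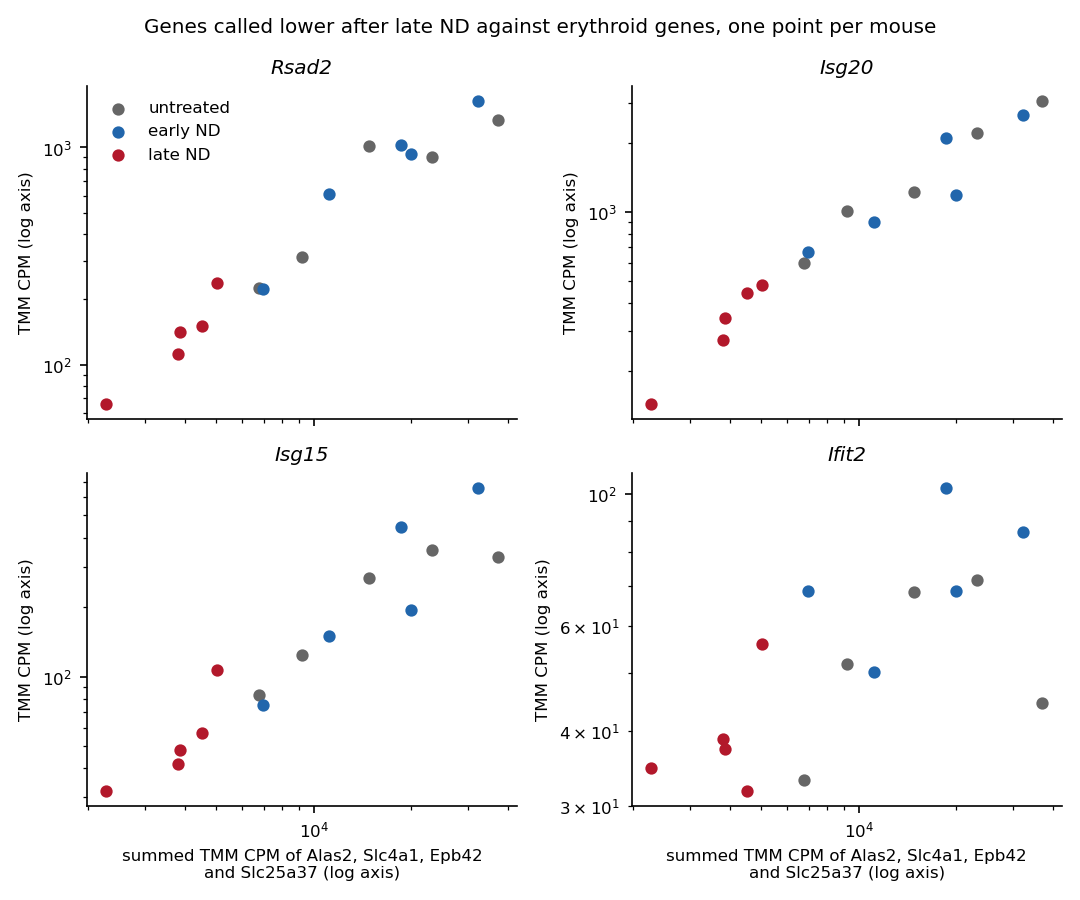
TMM-scaled CPM of Rsad2, Isg20, Isg15 and Ifit2 (y axes, log) against the summed TMM-scaled CPM of 4 non-globin erythroid genes (x axes, log), 1 point per mouse colored by group. Points of the first 3 genes run along a rising line with the late ND mice (2279 to 5019 on the x axis) at its lower end, and Ifit2 scatters more widely.

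A neighbour and a partner of these genes gave a second scale. Cmpk2, a mitochondrial nucleotide kinase, begins 12751 bases from Rsad2 on the opposite strand, and the pair is induced together by interferon. Cmpk2 had 15.8 to 49.7 CPM in untreated mice, 22 to 46.9 after early ND and 13.7 to 44.7 after late ND, groups that overlapped, with a log2 fold change of -0.39 ± 0.28 (SE, edgeR adjusted p = 0.436) for late against early ND. The log2 ratio of Rsad2 to Cmpk2 was 2.45 ± 0.13 (SD, n = 5) in late ND mice, 4.46 ± 0.79 (SD, n = 5) in early ND mice and 4.61 ± 0.86 (SD, n = 5) without treatment. The ratio was lower in every late ND mouse than in every other mouse, with mean differences of -2.01 from early ND and -2.16 from untreated mice. Among the late ND mice it ranged from 2.27 to 2.62, although Rsad2 itself ranged from 66.1 to 239 CPM. The ratio of Isg15 to Usp18, the protease that removes Isg15, differed by -1.27 from early ND and by -1.43 from untreated mice. It ranged from 1.78 to 2.44 in late ND mice, which overlapped the 2.35 to 4.56 of early ND mice. In untreated mice it was 3.01 to 4.33. Both pairs were chosen after the values were seen, and their ratios are given with no test.

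Among the 3 transcription factors of the list none was called. Irf7, which amplifies the interferon response, had 84.2 to 263 CPM in untreated mice (median 152), 85.0 to 503 after early ND (median 215) and 52.5 to 168 after late ND (median 75.4). Late 1 overlapped both other groups, late 4 (84.9 CPM) lay just above untreated 5 (84.2 CPM), and the log2 fold change was -1.31 ± 0.44 (SE, edgeR adjusted p = 0.0939) against early ND and -0.90 ± 0.35 (SE, adjusted p = 0.208) against untreated mice. Irf7 was called against early ND with the DESeq2 Wald test, without the filter on low counts and without early 3. Its difference turned to 1.01 with the hemoglobin covariate, where the median of the 46 genes was 0.97. Irf9 and Stat2, the DNA-binding and activating subunits of the interferon-activated complex, differed by 0.05 ± 0.15 and 0.04 ± 0.24 (SE) between late and early ND. Irf9 had the smallest spread of the 46 genes, from 60.1 to 96.4 CPM over all 15 mice.

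The genes for translation inhibitors gave the next largest differences. Ifit1, which recognises foreign RNA caps, and Ifit3 differed by -1.14 ± 0.56 (SE, adjusted p = 0.245) and -1.04 ± 0.55 (SE, adjusted p = 0.280) between late and early ND by edgeR. After late ND Ifit1 had 75.0, 24, 10.9, 20.7 and 8.27 CPM in mice 1 to 5, against 24.8, 53.7, 43.2, 125 and 66.8 after early ND and 40.2, 26.1, 65.0, 90.1 and 17.7 in untreated mice. Late 1 exceeded 4 of the 5 early ND mice, while the other 4 late ND mice lay below all of them. Ifit3 had 56.6 CPM in late 1, above 3 of the 5 early ND mice, and 5.05 to 17.9 in the other late ND mice, against 19.2 to 74.0 after early ND. Without late 1 edgeR called both Ifit1 and Ifit3 lower against early ND. Ifit3b, a near copy that shares 27.2% of its 100-base transcript stretches with Ifit3, differed by -0.75 ± 0.56 (SE, edgeR adjusted p = 0.461). Eif2ak2, the kinase PKR that halts translation on double-stranded RNA, differed by -0.06 ± 0.28 (SE).

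The oligoadenylate synthetase family, whose enzymes make the activator of RNase L, held 5 members, none called. Oas1a, Oas2 and Oas3 had positive log2 fold changes for late against early ND, of 0.38 ± 0.32, 0.34 ± 0.29 and 0.52 ± 0.29 (SE, lowest edgeR adjusted p = 0.301). Their late ND means were 32.9 ± 17.0, 110 ± 54.0 and 144 ± 66.4 CPM (SD, n = 5), of which late 1 alone had 61.4, 200 and 245 CPM. Oasl1 and Oasl2 differed by -0.14 ± 0.35 and 0.03 ± 0.30 (SE). Oas1a shares 9.5% of its transcript stretches with other genes, mainly Oas1g, so the counts of the pair may not be separate.

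The sensors, 6 genes, held no call. Ifi213 had the largest difference, -0.71 ± 0.33 (SE, edgeR adjusted p = 0.219) for late against early ND, and Ifi209 the next at -0.43 ± 0.26 (SE, adjusted p = 0.349). Both belong to the PYHIN family of nuclear and cytosolic DNA sensors, and Ifi204 of the same family differed by 0.10 ± 0.42 (SE). The RNA helicases Ifih1 (MDA5) and Dhx58 (LGP2) differed by -0.14 ± 0.32 and 0.05 ± 0.26 (SE), and Zbp1, a sensor of Z-form nucleic acid, by -0.34 ± 0.38 (SE). Ifi209 and Ifi204 share 16.4% and 11.8% of their transcript stretches with related genes.

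In the ISG15 pathway Usp18 had 7.90 to 28.7 CPM in untreated mice, 14.8 to 30.8 after early ND and 5.87 to 25.0 after late ND, and differed by -0.71 ± 0.33 (SE, edgeR adjusted p = 0.218) between late and early ND. This difference was 0.18 with library totals, where the median of all genes was 0.86. It was 0.67 with the hemoglobin covariate, where the median was 0.97 over the 46 genes and -0.03 over all genes. Herc6, the mouse ligase that attaches Isg15 to its targets, differed by -0.40 ± 0.35 (SE). Of the remaining direct effectors Mx1, a dynamin-like GTPase whose C57BL/6 allele is known to be defective, differed by -0.37 ± 0.35 (SE), Bst2, which tethers budding virus, by -0.15 ± 0.23 (SE) and Samd9l by -0.07 ± 0.23 (SE). Among Parp9, Dtx3l and Parp14, enzymes of ADP-ribosylation and ubiquitin transfer, the differences lay between -0.19 and -0.02.

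The Schlafen, TRIM30 and Phf11 families split. Slfn1, which restrains lymphocyte growth, had 152 to 228 CPM in untreated mice, 135 to 236 after early ND and 148 to 297 after late ND. Its difference was 0.46 ± 0.22 (SE, edgeR adjusted p = 0.220) against early ND and 0.33 ± 0.19 (SE, adjusted p = 0.421) against untreated mice. With library totals it was called higher in both, as were 8923 of all 13315 and 7484 of all 13547 genes. Trim30a and Trim30d differed by 0.24 ± 0.24 and 0.13 ± 0.23 (SE) from early ND, Slfn5 and Slfn8 by -0.13 ± 0.36 and -0.37 ± 0.27 (SE), and Phf11b and Phf11d by -0.27 ± 0.33 and -0.67 ± 0.35 (SE), none called. A gene on the opposite strand overlaps 26.7% of the exon length of Slfn8 and 19.8% of that of Slfn5. The other 8 tested genes, among them Ifi27l2a, Rtp4, Xaf1 and Sp100, had log2 fold changes between -0.36 and -0.03, none called. Rtp4 shares 24.9% of its transcript stretches with another gene, and 24.5% of the exon length of Ifi35 is overlapped on the opposite strand.

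Between early ND and untreated mice 37 of the 46 log2 fold changes were positive, with a median of 0.20 against -0.0022 over all genes. The lowest unadjusted p belonged to Ifit2, whose difference of 0.47 ± 0.23 (SE, edgeR adjusted p = 0.938) did not pass. Tor3a, Mx1, Sp100, Ifit3 and Ifi209 followed, with differences of 0.32, 0.55, 0.27, 0.71 and 0.28, each with an edgeR adjusted p of 0.938 or 0.940. The count of positive values turned on single mice. It was 43 of 46 without untreated 4 or without early 1, and 28 of 46 without early 4.

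For 42 of the 46 genes the SD of log2 CPM within groups exceeded the SD of the 3 group means, as it did for 87.7% of all 13421 genes. The other 4 were Rsad2, Isg20, Isg15 and Ifit2. The median SD of log2 CPM over the 46 genes was 0.49 in untreated mice, 0.41 after early ND and 0.62 after late ND, where the median over 13421 genes was 0.32, 0.32 and 0.25. It lay above the median of all genes for 36, 33 and 46 of the 46, but for 22 in untreated mice without untreated 4 and for 35 after late ND without late 1. By the median of the 3 groups Rsad2 (1.09), Ifit1 (0.95), Isg15 (0.93) and Ifit3 (0.87) varied most, and Irf9 (0.22), Epsti1 (0.26), Samd9l (0.26) and Parp9 (0.26) least.

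In some mice nearly all the genes lay on the same side of the rest of the group. Late 1 lay above the mean of the other late ND mice for 46 of the 46 genes, with a median difference of 1.10 on the log2 scale, while the median over all genes was within 0.031 of 0 in each of the 15 mice. Late 5 and late 3 lay below for 45 genes each, by medians of -0.80 and -0.40. Untreated 4 was above the other untreated mice for 45 genes (median 0.82) and untreated 5 below for 42 (median -0.54). Early 1 was below the other early ND mice for 46 genes (median -0.51), and early 4 and early 5 above for 43 and 42. The remaining mice were mixed. Untreated 1, 2 and 3 were above for 16, 14 and 26 of the 46 genes, early 2 and 3 for 26 and 11, and late 2 and 4 for 18 and 31. Late 1 and untreated 4 are part of the mean that the other mice of their group are compared with, which moves those mice down. The genes share a library, so these counts are no independent evidence of one another, and they are given with no test.

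**Figure D4:**
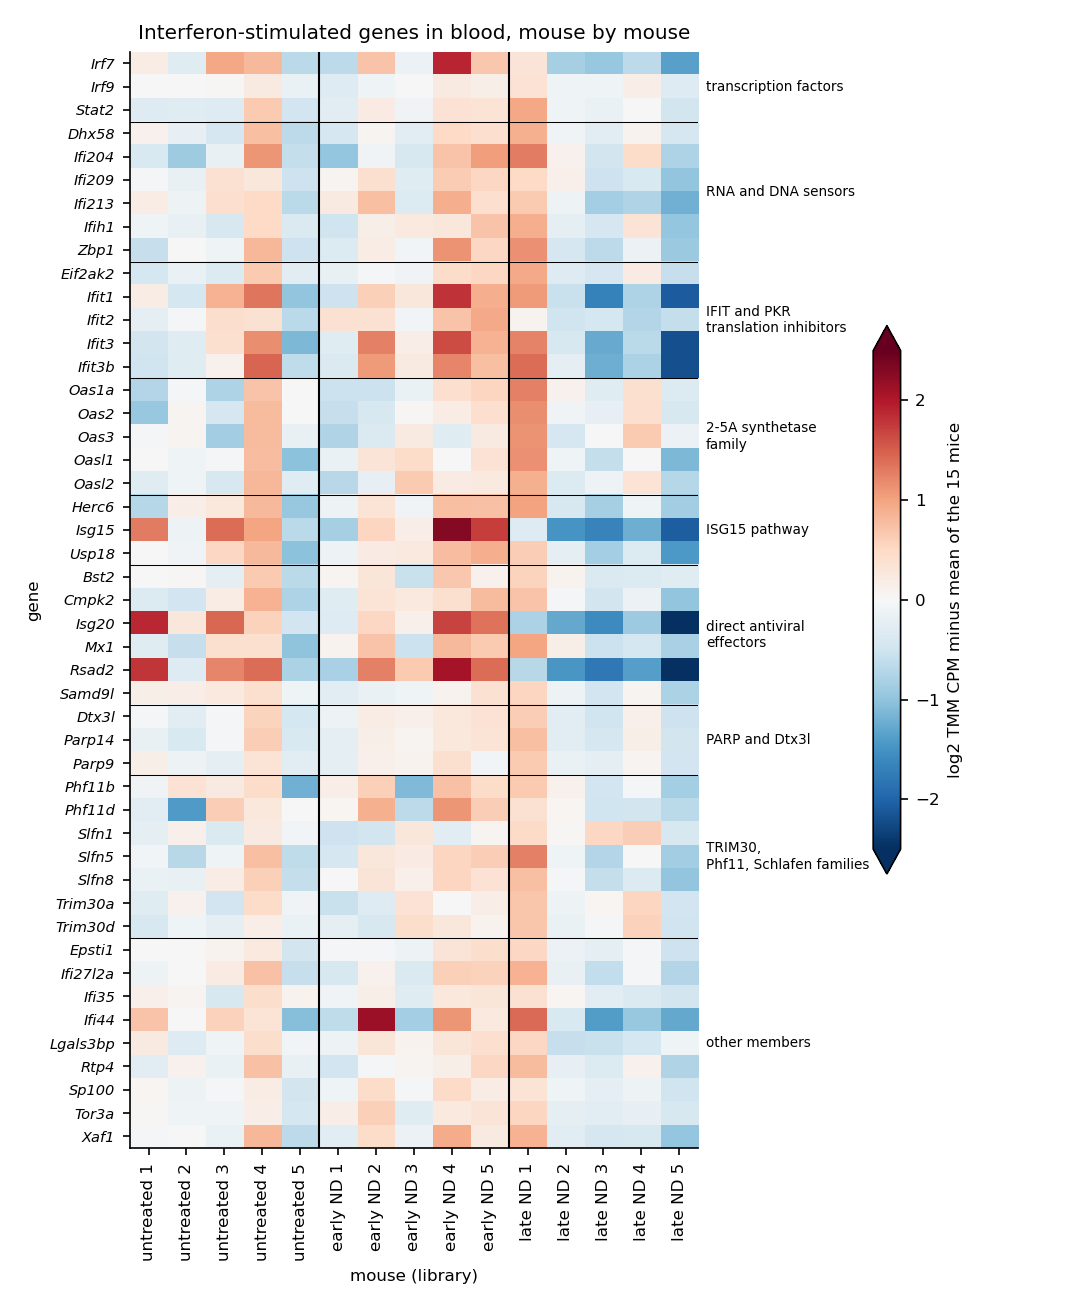
log2 TMM-scaled CPM of the 47 genes (rows, grouped by role) in the 15 mice (columns, grouped), as the difference from the mean of the 15 mice (red higher, blue lower). Columns late 1 and untreated 4 are red over nearly all rows, columns late 5 and untreated 5 blue, and Rsad2, Isg20 and Isg15 stand out as rows that are blue in all 5 late ND mice.

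Late 1 exceeded the mean of the other late ND mice by 1.09 for Rsad2, 1.29 for Isg15 and 0.78 for Isg20 on the log2 scale, and was high for the other genes too. Its summed CPM of the 44 genes other than these 3 was 4666, against 1768 to 3002 in the other late ND mice and 2235 to 3963 after early ND. Its Stat2 level was 108 CPM against 40.2 to 55.5 in the other late ND mice, its Zbp1 level 92.1 against 21.9 to 37.5 and its Eif2ak2 level 64.3 against 22.2 to 38.5. This was not particular to the 47 genes. GTPases of the interferon gamma response (listed below) summed to 652 CPM in late 1 against 270 to 380 in the other late ND mice. They summed to 701 in untreated 4 against 328 to 458 in the other untreated mice. A second interferon-induced list (below) summed to 8223 in late 1 against 3727 to 6447. In untreated 4 that list summed to 10240, within the 5975 to 15509 of the other untreated mice. Late 1 had 239 CPM of Rsad2, below 8 of the 10 early ND and untreated mice, and 477 of Isg20, below all 10. In the same library the monocyte marker genes summed to 1556 CPM, the highest late ND value (996 to 1528 in the others), the neutrophil markers to 11472 (6129 to 16458) and the plasmacytoid dendritic cell markers to 98.9 (87.8 to 113). Without late 1 the median SD of the late ND group was 0.36 and without untreated 4 that of the untreated group 0.32. The part of cell numbers in the level of late 1 was not tested.

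**Figure D5:**
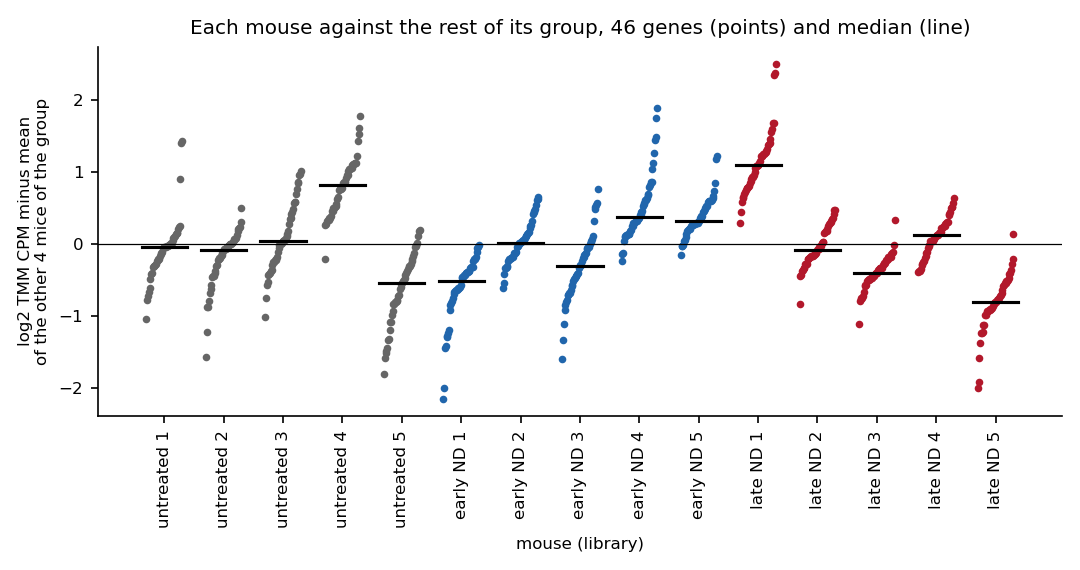
log2 TMM-scaled CPM of each of 46 genes (points, sorted within a mouse) minus the mean of the other 4 mice of its group (y axis), by mouse (x axis), with the median as a black line. All points of late 1 lie above 0 and all points of early 1 below it.

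The interferons themselves were close to undetected. Of 20 ligand genes 13 had 0 counts in all 15 libraries, which allows up to 0.0243 CPM, unscaled, over the 123672435 gene counts (3 counts, counting error only), and none passed the filter. The 17 type I ligand genes held 15 counts in all. Ifnl2 had the most counts of any ligand, 38 over the 15 libraries, and Ifng had 29. The counts were not spread evenly. The summed CPM of the 20 genes was 6.46 in early 2, 2.81 in untreated 1, 1.64 in late 2 and at most 0.892 in any other mouse. Transcripts of interferons made outside the blood would not be counted here.

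Of 9 receptor and kinase genes 2 rose after late ND against early ND and 0 fell (all genes: 2.5% higher, 2.48% lower). Both encode the receptor of interferon gamma. Ifngr1 rose by 0.57 ± 0.14 on the log2 scale, from 91.8 to 135 CPM (edgeR adjusted p = 0.0392), and Ifngr2 by 0.53, from 48.2 to 68.5 CPM (adjusted p = 0.0423). Both missed the threshold with DESeq2 size factors (0.55 and 0.51) and without the 3 libraries poor in 18S RNA (0.67 and 0.53), and the DESeq2 Wald test called both and Ifnlr1. Ifnar1 and Ifnar2, the type I receptor, differed by 0.28 (adjusted p = 0.159) and 0.34 (adjusted p = 0.208). None of the 10 transcription factors and brakes and none of the 15 tested sensors and adaptors was called in any comparison by edgeR. At an unadjusted p under 0.05 edgeR had 2 and 3 of them higher and 0 lower against early ND, and 2 and 5 higher and 1 and 0 lower against untreated mice. At that threshold 1921 of all 13315 genes were higher and 1242 lower against early ND, and 1177 of all 13547 higher and 1122 lower against untreated mice. The DESeq2 Wald test called Stat3, Socs3 and Myd88 higher against early ND and Irf5 and Tlr9 higher against untreated mice. It called 766 of all 13315 genes higher against early ND and 274 of all 13547 against untreated mice.

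Among 44 tested genes of a second interferon-induced list the DESeq2 Wald test called 2 lower and 2 higher after late against early ND. Of all 13315 genes it called 672 lower and 766 higher. By edgeR 1 of the 44 fell and 1 rose, near the 2.48% and 2.5% of all genes. The one that fell was Ube2l6, the conjugating enzyme for Isg15, with means of 5725 CPM in untreated mice, 6022 after early ND and 1232 after late ND (edgeR log2 fold changes of -2.26, adjusted p = 0.0126, and -2.21, adjusted p = 0.0250). Its slope on the erythroid genes in the 10 early ND and untreated mice was 0.91 ± 0.10 (SE, adjusted p = 0.000225), and with the hemoglobin covariate its difference from early ND was -0.48. The one that rose was Ifitm2, a membrane protein that blocks virus entry and is abundant in neutrophils, by 1.25 (adjusted p = 0.0419). The summed level of 12 neutrophil markers was 10934 ± 3977 CPM in the late ND group against 5020 ± 2417 in the early ND group (SD, n = 5 each). Their median difference was 1.09 on the log2 scale, 1 of the 12 was called higher, and their part in the rise of Ifitm2 was not tested. Of 15 tested GTPases of the interferon gamma response 2 fell against early ND by edgeR, Gbp6 by 1.20 (adjusted p = 0.0277) and Tgtp1 by 1.07 (adjusted p = 0.0293), against 2.48% of all genes. The DESeq2 Wald test called 8 of the 15 lower, against 672 of all 13315 genes. The log2 fold changes were negative for 15 of 15, against 48.2% of all genes, and their median was -0.60. With library totals the differences of Gbp6 and Tgtp1 were -0.35 and -0.21, against a median of 0.86 for all genes. All 4 calls, Ube2l6, Ifitm2, Gbp6 and Tgtp1, were lost without the 3 libraries poor in 18S RNA, where the differences were -2.18, 1.33, -1.08 and -1.18. Against untreated mice edgeR called none of the 15 GTPases. At an unadjusted p under 0.05 it had 3 lower and 0 higher, against 1122 and 1177 of all 13547 genes. The DESeq2 Wald test called 1 lower, Tgtp1, against 534 of all 13547 genes.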

How the data were processed

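RNA-seq of whole blood from 15 mice (5 per group) was analysed. The authors deposited raw read counts per gene for each library, and the submitters' processing notes name STAR 2.7.9 (genome GRCm39), SAMtools 1.7 and HTSeq 0.13.5; the annotation release and strand setting are not given in the sources used here. Groups came from the sample labels. Symbols and coordinates came from GENCODE vM39 (GRCm39), which matched 54749 of 55416 identifiers, and promoters from RefSeq (GRCm38.p6).

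Each pair of groups was fitted alone with the edgeR 4.0.16 quasi-likelihood test in R 4.3.3, after filterByExpr and TMM scaling, with Benjamini-Hochberg adjustment over all genes tested and a threshold of 0.05. DESeq2 1.42.0 was an alternative. The fits across genes were tested on simulated data. Gene counts per library were 5527108 to 13924361, and intervals and floors cover counting error only. Genes were named that passed the threshold (the 6 lowest p where fewer than 6 passed), had the 6 highest levels per kilobase, were among the 4 most and 4 least variable or stood apart by Dixon's ratio; the rest of the list was given by role, as were genes set beside a result, which were chosen after their values were seen. The members and lists were chosen with earlier results of these data known, and the erythroid slope, the erythroid ratio and the ratios of gene pairs were added after the data were seen. Some genes are not reported here and entered no list or sum. Permutation tests were exact and two-sided.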

Additional observations from a re-analysis of the deposited data

Results flagged for a closer look

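Within each group of 5 mice, the gap in CPM, without a logarithm, between the highest or lowest mouse and its neighbour was divided by the group's range. It passed Dixon's critical ratio of 0.71 in 18 of 138 gene and group combinations (13%). Over all 13421 genes 7.62% of the combinations passed (9.34% in untreated, 7.06% in early ND and 6.46% in late ND mice). Chance flags about 1 in 20 if values are normally distributed, which CPM without a logarithm need not be. All 18 were high values, as were 2423 of the 3068 flagged over all genes. Ratios on the log2 scale are not given. The genes share libraries, so the 18 are not independent. Late 1 stood apart for 10 genes, with ratios of 0.765 for Ifit1, 0.751 for Ifit3, 0.735 for Ifit3b, 0.719 for Irf7, 0.776 for Stat2, 0.778 for Zbp1, 0.753 for Xaf1, 0.742 for Herc6, 0.752 for Slfn5 and 0.834 for Tor3a. Untreated 4 stood apart for 8 genes, with ratios of 0.791 for Ifit3b, 0.834 for Oasl2, 0.894 for Stat2, 0.713 for Zbp1, 0.737 for Ifih1, 0.734 for Parp14, 0.79 for Ifi204 and 0.816 for Eif2ak2. No early ND mouse passed.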

How the results depend on the processing

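Leaving out 1 mouse gave 1 to 6 genes lower for late against early ND and 0 to 3 for late ND against untreated mice. Over all genes these fits gave 106 to 553 and 0 to 409 lower. The median SD was 0.32 to 0.55 in untreated mice, 0.36 to 0.47 after early ND and 0.36 to 0.69 after late ND. With library totals 24 of the 46 genes were higher in each late ND comparison, as were 8923 of all 13315 and 7484 of all 13547 genes. Against early ND Ifit2 turned to 0.014 and Usp18 to 0.18, and against untreated mice Irf7 to 0.097 and Ifit2 to 0.50. The median of all genes moved to 0.86 and 0.91 in these fits. With the hemoglobin covariate 0 of the 46 genes and 0 of all genes were called in both. Isg15 turned to 0.23, Irf7 to 1.01 and Usp18 to 0.67 against early ND and Irf7 to 0.42 against untreated mice. The medians of the 46 genes were 0.97 and 0.64 in these fits. Without the 3 libraries poor in 18S RNA 0 of the 46 genes and 0 of all genes were lower in both, with fewer mice in the fit. As a ratio to erythroid counts, added after the data were seen, Isg15 turned to 0.072 and Ifit2 to 1.60 against untreated mice, and Ifit2 to 1.15 against early ND. Same-numbered mice did not all deviate together (correlations from -0.181 to 0.459 for late and early ND, 0.029 to 0.579 for late ND and untreated and -0.241 to 0.080 for early ND and untreated mice). In the same order 1, 3 and 0 of 5 correlated best with their own number, and the mean correlations were -0.013, 0.243 and -0.099. Whether the number marks a pairing or a batch was not tested. With the replicate block the SE of Isg20 against untreated mice was 0.25 in place of 0.44, and Isg15 was no longer called against early ND. In that fit 3 of the 46 genes were lower in each late ND comparison, as were 305 of all 13315 and 377 of all 13547 genes. The cause of these changes was not tested. Early ND against untreated mice gave 0 calls of these genes under every alternative run.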
